A study of Rattus norvegicus with 2 samples.

Results

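The 4 genes *Zfp36*, *Zfp36l1*, *Zfp36l2* and *Zc3h12a*, whose proteins destroy cytokine mRNAs, were followed in cardiac cells of newborn rats after lipopolysaccharide (LPS), a cell wall component of Gram-negative bacteria. They were taken by symbol, and all 4 were among the 25399 genes listed, as ENSRNOG00000058388, ENSRNOG00000058646, ENSRNOG00000005067 and ENSRNOG00000009131 in that order. The series compared 2 single-cell libraries, 1 of cells kept with LPS at 1 µg/ml (055:B strain in the labels) and 1 of cells kept with saline, each for 2 h. Both came from the hearts of Sprague-Dawley rats of 1 to 3 days, male and female animals pooled, whose cells were released with trypsin, enriched for intrinsic cardiac adrenergic (ICA) cells on Percoll and taken up again with trypsin and EDTA after the treatment. ICA cells are catecholamine-making cells of the heart. Because animals were pooled and each condition has 1 library, no difference has a replicate check, no p-value is given, and all intervals cover counting error at the 95% level and nothing else.

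The proteins act in 2 ways. *Zfp36* encodes tristetraprolin, and *Zfp36l1* and *Zfp36l2* encode its relatives. These zinc finger proteins bind AU-rich elements in the 3′ untranslated regions of mRNAs such as that of TNF-α, and bring in the CCR4-NOT complex, which shortens the poly(A) tail. *Zc3h12a* encodes Regnase-1, an endoribonuclease that cuts stem-loops in the 3′ untranslated regions of mRNAs such as *Il6*. *Zfp36* and *Zc3h12a* are both known as genes switched on by Toll-like receptor signalling, and Regnase-1 protein is also known to be destroyed after such signalling, so that an mRNA level does not give the protein level.

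The control library held 11531 cells with 152624585 UMIs (unique molecular identifiers, each counting 1 captured mRNA molecule) and the LPS library 12689 cells with 127580475 UMIs, with a median of 12479 and 9432 UMIs per cell. Classes are the clusters of the authors, of which 10 had at least 50 cells: clusters 0, 1 and 7 (fibroblast), 3 (ICA and cardiomyocyte), 4 and 5 (endothelial), 6 (macrophage) and 2, 8 and 9 (left without a name). They held between 124 and 13630 cells. Marker genes went with these names, with the exception that *Th*, the gene of the first enzyme of catecholamine synthesis, had no UMI in cluster 3 in either library. Among the unnamed clusters, mural cell markers were highest in cluster 2 and mesothelial markers in cluster 8. Cluster 9 was mixed. Its summed fibroblast markers lay above those of cluster 0. Taken separately, they ran from 71.0% to 191% of the cluster 0 level in control and from 37.4% to 216% in LPS. Its cardiomyocyte markers stood at 1645 and 1792 UMIs per 1000000 in control and LPS, against 223 and 184 in cluster 0. Its median share of mitochondrial UMIs was 14.0% in control and 12.6% in LPS. The libraries shared 194 cell barcodes, 1.68% of control and 1.53% of LPS barcodes. A level below is the number of UMIs of a gene per 1000000 UMIs of the class (CPM), and a ratio is the LPS level over the control level. Fewer captured molecules per cell and a lower part of the cell's mRNA are different quantities. UMIs per cell are therefore given for the 4 genes where the sign depends on the choice, and for some genes of the lists.

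The 250 bases before the start site that the RefSeq promoter set uses are printed for the pair whose levels moved most and in opposite directions, *Zc3h12a* and *Zfp36l2*, and for *Zfp36*, the founder of the family. All 4 genes matched the RefSeq promoter set of build GRCr8. The start site of that set need not be the outermost of a gene. For *Zfp36* and *Zfp36l2* the whole window lay before the annotated gene, for *Zc3h12a* 66 of the 250 bases lay inside it, the capitalised letters among them, and for *Zfp36l1*, whose start site here is 1125 bases inside the annotated gene, all 250 did. The build behind the UMI counts is not given in the sources used here. The windows are chr5:142669986-142670235 on the minus strand for *Zc3h12a*, chr6:16242372-16242621 on the plus strand for *Zfp36l2* and chr1:92799109-92799358 on the minus strand for *Zfp36*. Capitals mark a CArG box, the letters bound by serum response factor, or the TGACG letters that form part of a cyclic AMP response element. In *Zc3h12a* TGACG lies on the strand opposite to the one printed, so that its capitals read CGTCA.
Zc3h12a: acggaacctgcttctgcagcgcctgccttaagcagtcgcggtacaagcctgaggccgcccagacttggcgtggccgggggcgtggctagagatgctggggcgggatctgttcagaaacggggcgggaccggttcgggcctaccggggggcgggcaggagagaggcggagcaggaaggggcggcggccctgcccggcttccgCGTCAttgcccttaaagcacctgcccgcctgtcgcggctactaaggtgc
Zfp36l2: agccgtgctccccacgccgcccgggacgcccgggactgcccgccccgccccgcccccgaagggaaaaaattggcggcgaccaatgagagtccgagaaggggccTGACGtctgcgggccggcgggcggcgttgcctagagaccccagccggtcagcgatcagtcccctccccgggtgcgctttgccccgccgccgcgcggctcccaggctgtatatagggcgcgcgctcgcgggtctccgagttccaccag
Zfp36: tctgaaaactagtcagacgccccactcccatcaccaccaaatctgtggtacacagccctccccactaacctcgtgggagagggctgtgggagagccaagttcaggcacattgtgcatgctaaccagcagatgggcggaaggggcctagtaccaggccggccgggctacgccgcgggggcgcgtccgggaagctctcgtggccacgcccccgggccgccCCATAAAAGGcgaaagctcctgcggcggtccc

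Both strands of the windows were searched for the NF-κB consensus, for the CArG box and for TGANTCA, a loose form of the AP-1 motif. The cyclic AMP response element TGACGTCA was searched together with its first letters, TGACG. The STAT motif TTCNNNGAA was searched as well, as were the TATA box, TATAAA, and the GC box that Sp1 binds, GGGCGG. *Zc3h12a* and *Zfp36l2* each held 1 TGACG, which occurs in 18.2% of 33469 rat windows of the same length, and 5 GGGCGG, of which 30.5% of windows hold at least 1. In *Zfp36* a CArG box began 32 bases before the start site, and 1.5% of windows hold one. Its window also held 2 GGGCGG. The window of *Zfp36l1*, chr6:104668691-104668940 on the minus strand, held 1 TGANTCA (6.34% of windows) and 1 TATAAA (12.9%). The TGANTCA match read TGATTCA, so it met only the loose form of the AP-1 motif. An NF-κB consensus, present in 6.33% of windows, was in none of the 4, which says only that these letters are not in these 250 bases. The windows of *Zc3h12a*, *Zfp36l2* and *Zfp36* were 69.2%, 73.6% and 65.2% G and C, that of *Zfp36l1* 50.4%, against a median of 51.2% over all windows.

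*Zc3h12a* was higher in the LPS library in every class, *Zfp36* was at least 2-fold higher on the CPM scale in macrophages and in the small cluster 9, *Zfp36l2* was lower at each point estimate on that scale, and *Zfp36l1* moved little. Over all clustered cells *Zc3h12a* stood at 7.63 CPM in control and 65.1 CPM in LPS (1165 and 8298 UMIs), a ratio of 8.52 (8.01 to 9.07). *Zfp36* stood at 18.3 and 21.7 CPM, a ratio of 1.18 (1.12 to 1.25), but of 0.898 on UMIs per cell. *Zfp36l1* stood at 325 and 389 CPM, a ratio of 1.20 (1.18 to 1.21), but of 0.909 on UMIs per cell. The endonuclease gene thus had a far larger ratio than any gene of the tristetraprolin family. *Zfp36l2* stood at 66.6 and 46.8 CPM, a ratio of 0.703 (0.681 to 0.726).

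**Figure D1:**
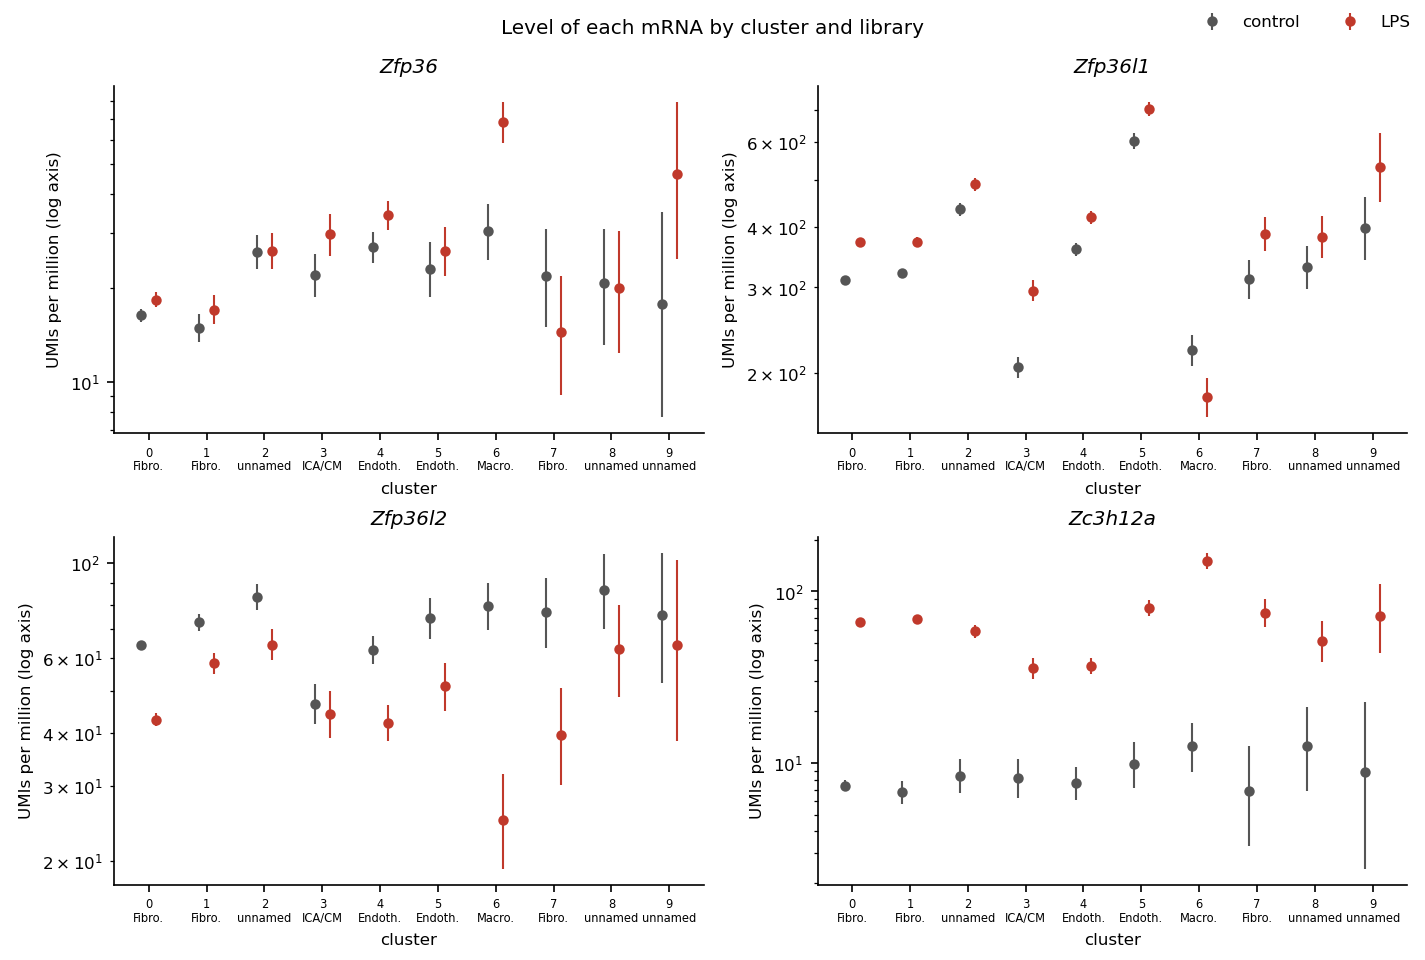
Level of each of the 4 mRNAs (CPM, log axis) in the 10 clusters, control in grey and LPS in red, 1 library each, with exact Poisson 95% intervals. The LPS points of Zc3h12a lie above the control points in all 10 clusters, and in cluster 6 (macrophages) Zfp36 is higher and Zfp36l2 lower in LPS.

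These ratios were read against every gene that had 50 UMIs or more in a class. Over all clustered cells 3.37% of such genes were at least 2-fold higher in LPS and 8.13% at least 2-fold lower. The share at least 2-fold higher was 3.44%, 3.23%, 2.86%, 1.7%, 2.65%, 4.24%, 4.82%, 4.7%, 2.48% and 2.69% in clusters 0 to 9, and the share at least 2-fold lower 9.1%, 5.09%, 4.28%, 1.69%, 4.08%, 4.56%, 12.3%, 3.45%, 1.67% and 2.81%. Against that background *Zc3h12a* was at least 2-fold higher in 10 of 10 clusters, *Zfp36* in 2 and the other two in 0, and *Zfp36l2* was at least 2-fold lower in 1. *Zc3h12a* ranked 58 of 13228 genes by ratio over all clustered cells. The median gene had a log2 ratio of -0.13 over all cells and -0.31 in macrophages, so a gene at that value kept its place among the others.

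**Figure D2:**
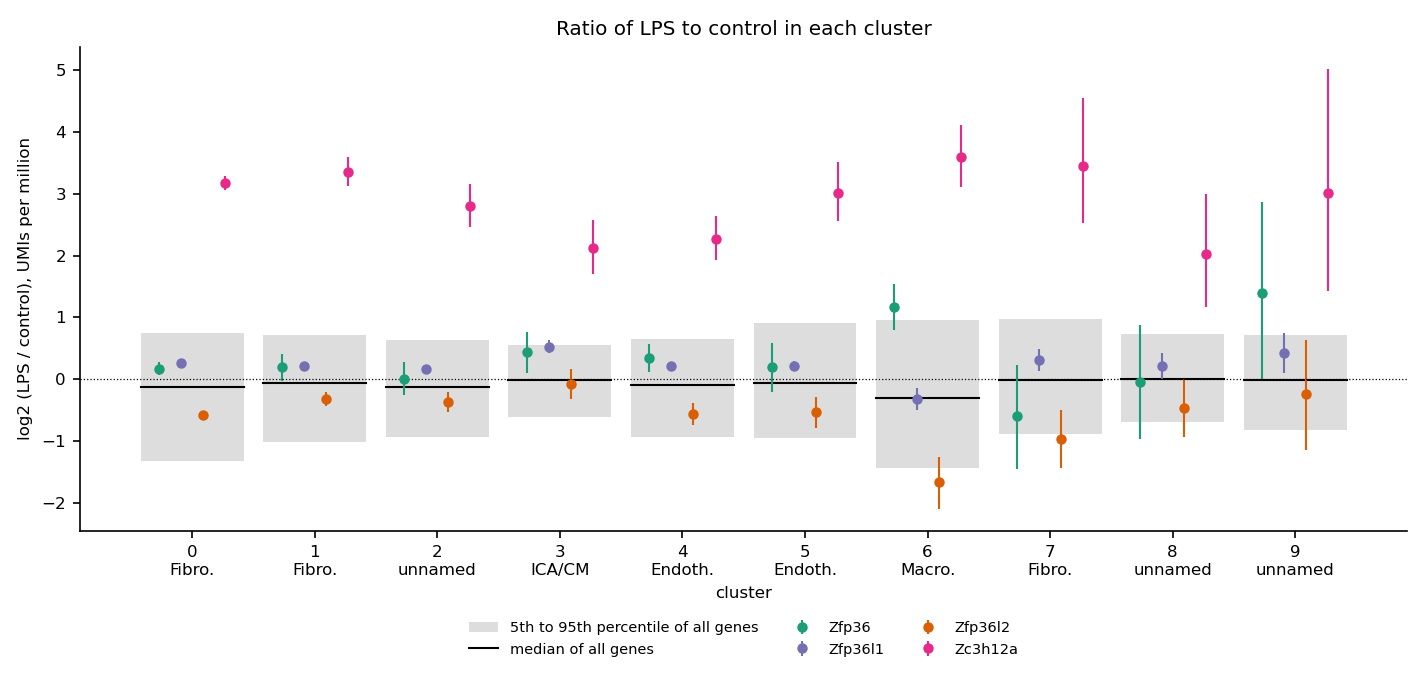
Log2 ratio of LPS to control for the 4 mRNAs in each cluster with 95% counting intervals, over the 5th to 95th percentile of all genes that had 50 UMIs or more in the cluster (grey) and their median (black line). Zc3h12a lies above the grey range in 10 of 10 clusters, whereas Zfp36l1 lies inside it in each.

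*Zc3h12a* reached its highest LPS level in macrophages. In cluster 6 it went from 12.5 CPM in control to 151 CPM in LPS (39 and 375 UMIs), a ratio of 12.0 (8.65 to 17.2). This level was apart from the next in the LPS order, 1.89-fold (1.63 to 2.18) above endothelial cluster 5. The fibroblast clusters followed the same direction. Cluster 0 went from 7.40 to 66.8 CPM (670 and 4926 UMIs), cluster 1 from 6.75 to 68.9 CPM (162 and 1388 UMIs) and cluster 7 from 6.85 to 75.0 CPM (10 and 114 UMIs). Their ratios were 9.02 (8.32 to 9.79), 10.2 (8.68 to 12.1) and 10.9 (5.74 to 23.4), and the intervals overlap.

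The endothelial clusters 4 and 5 had alike *Zc3h12a* levels in control and unlike levels in LPS. Cluster 4 went from 7.64 to 37.0 CPM (85 and 360 UMIs), a ratio of 4.84 (3.81 to 6.21), and cluster 5 from 9.88 to 80.0 CPM (42 and 364 UMIs), a ratio of 8.09 (5.87 to 11.4). Their control levels were within counting error of their neighbours, as were those of all 10 clusters, which ran from 6.75 to 12.6 CPM. Clusters that were not neighbours could be apart. Control macrophages, at 12.5 CPM (8.90 to 17.1), lay above clusters 0 (6.85 to 7.99) and 1 (5.75 to 7.87). The lowest LPS level was in cluster 3, the cells named ICA and cardiomyocyte, at 35.8 CPM against 8.19 CPM in control (196 and 58 UMIs), a ratio of 4.36 (3.24 to 5.96). This LPS level was not apart from that of cluster 4, which was 1.03-fold (0.867 to 1.24) higher. Mitochondrial UMIs are part of the UMIs of the class, and their median share in LPS was 17.3% in cluster 3 and 3.26% in cluster 4. They lower the CPM of cluster 3 more than that of cluster 4. Whether cluster 3 would still be lowest without them was not tested. Clusters 2, 8 and 9 had ratios of 6.96 (5.48 to 8.94), 4.08 (2.24 to 7.96) and 8.05 (2.70 to 32.4), the last on 4 control and 20 LPS UMIs. Set against fibroblast cluster 0 on the log2 scale, with a normal approximation for the counting interval, the ratio was lower by an interval that leaves out 0 in clusters 2, 3, 4 and 8. For cluster 3 the difference was -1.05 (-1.49 to -0.61), and for macrophages it was 0.42 (-0.07 to 0.91), which includes 0.

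Droplets also take up free RNA from other cells. Of 8 fibroblast markers, the LPS cells of cluster 3 held 18.3% to 53.2% of the level of cluster 0, with a median of 36.6%, and *Zc3h12a* stood there at 53.5% of cluster 0. In cluster 4 the markers stood at 16.7% to 30.8% and *Zc3h12a* at 55.4%. In macrophages they stood at 22.7% to 35.8% and *Zc3h12a* at 226%. How much of the levels in clusters 3, 4 and 6 came from free RNA was not tested. The 10 macrophage markers had medians of 0% to 1.09% of their macrophage level in the other clusters. The highest single marker stood at 30.4% in control and 16.5% in LPS in cluster 5, and at 7.47% in LPS in cluster 9.

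The higher *Zc3h12a* level went with a larger share of cells with a UMI. With each cell thinned to 3000 UMIs, 12 of 281 control macrophages (4.27%, Clopper-Pearson interval 2.23 to 7.34) and 109 of 290 LPS macrophages (37.6%, 32.0 to 43.4) had a *Zc3h12a* UMI. In cluster 0 the shares were 2.15% and 17.9%, and in cluster 3 they were 2.27% (19 of 836 cells) and 8.86% (82 of 926 cells). No class here is known to lack these genes, so there is no background share to set beside them. If every cell of the class had the same level, 38.5% of LPS macrophages and 18.3% of LPS cells of cluster 0 would have had a UMI, close to the shares counted at this depth. Thinned to 5000 UMIs, the counted and same-level shares were 53.0% and 57.1% in LPS macrophages and 27.8% and 29.0% in LPS cells of cluster 0. Thinned to 1500 UMIs they were 18.6% and 20.3% in LPS macrophages. The closeness at 3000 UMIs therefore does not show that the level was even over cells.

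*Zfp36*, the tristetraprolin gene, differed most clearly in macrophages. There it went from 30.5 CPM (95 UMIs) to 68.4 CPM (170 UMIs), a ratio of 2.24 (1.73 to 2.91), at the 96.0 percentile of all genes in that class. This log2 ratio exceeded that of cluster 0 by 1.00 (0.62 to 1.37), the only cluster with an interval that leaves out 0. The thinned share of macrophages with a *Zfp36* UMI was 7.47% (21 of 281) in control and 18.6% (54 of 290) in LPS. Per cell, the ratio in macrophages was 1.73.

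In the other clusters the *Zfp36* ratios were smaller or rested on few UMIs. Cluster 0 went from 16.3 to 18.4 CPM, a ratio of 1.12 (1.04 to 1.21), cluster 3 from 22.0 to 29.7 CPM, 1.35 (1.08 to 1.69), and cluster 4 from 27.1 to 34.3 CPM, 1.27 (1.08 to 1.49). On UMIs per cell these 3 ratios were 0.861, 0.940 and 0.975, on the other side of 1, so no direction can be given for them. Clusters 1, 2, 5, 7 and 8 had CPM intervals that include 1. On UMIs per cell the ratios in clusters 1, 2 and 5 were 0.867, 0.754 (0.626 to 0.908) and 0.967, also on the other side of 1. The lowest ratio was in fibroblast cluster 7, from 21.9 to 14.5 CPM (32 and 22 UMIs), 0.660 (0.366 to 1.17). On UMIs per cell it was 0.497 (0.275 to 0.881). Cluster 9 had a ratio of 2.61 (1.00 to 7.28) on 8 and 13 UMIs. *Zfp36* had under 50 UMIs in clusters 8 and 9 and *Zc3h12a* in cluster 9, so these are not among the genes behind the background shares. No neighbours in the order of *Zfp36* levels over the 10 clusters were apart beyond counting error, in either library, and its control levels ran from 14.9 CPM in cluster 1 to 30.5 CPM in macrophages. The neighbour of macrophages in LPS was cluster 9, on 13 UMIs. Clusters further down the order could be apart, since LPS macrophages stood at 68.4 CPM (58.5 to 79.5) and cluster 4 at 34.3 CPM (30.7 to 38.2).

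*Zfp36l1* had the most UMIs, and its level differed more between cell types than between libraries. In control it ran from 205 CPM in cluster 3 and 222 CPM in macrophages to 603 CPM in endothelial cluster 5, a span of 2.94-fold. Cluster 5 was apart from the next cluster in both libraries. In LPS the order ran from 178 CPM in macrophages to 702 CPM in cluster 5. Ratios in the 9 clusters other than macrophages lay between 1.13 and 1.44, each with an interval above 1, and the highest was in cluster 3, from 205 to 295 CPM (1451 and 1619 UMIs; 1.34 to 1.55). After thinning to 3000 UMIs per cell the cluster 3 ratio was 1.23, below that interval, and the highest of any cluster was 1.55. As a mean over cells the cluster 3 ratio was 1.36 and the highest 1.47. Counted as UMIs per cell the same 10 clusters had ratios of 0.616 to 1.00, with an interval below 1 in 5 and above 1 in 0. The sign of the small difference in *Zfp36l1* therefore depends on the scale.

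In macrophages *Zfp36l1* went from 222 to 178 CPM (693 and 442 UMIs), a ratio of 0.799 (0.708 to 0.902). That is the 48.8 percentile of the genes of the class, since the median gene of macrophages had a ratio of 0.808. Relative to the median gene, *Zfp36l1* was thus neither higher nor lower there, at a ratio of 0.989. The thinned share of macrophages with a *Zfp36l1* UMI was 38.4% (108 of 281) in control and 25.2% (73 of 290) in LPS, where 1 common level would have given 31.8%. The LPS macrophages with a *Zfp36l1* UMI held 3420 CPM of the 8 fibroblast markers and those without 1645 CPM, against 3420 and 2557 CPM in control. The part of free RNA or of mixed droplets in this was not tested.

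**Figure D3:**
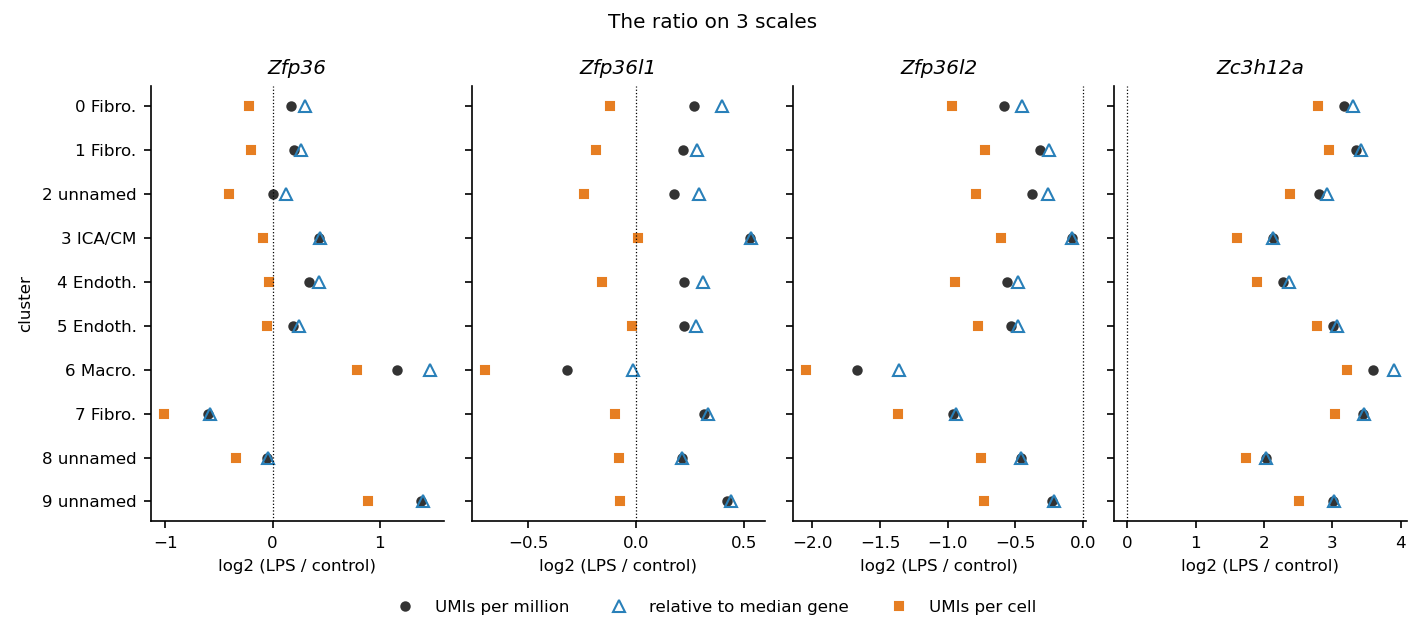
Log2 ratio of LPS to control of the 4 mRNAs by cluster on 3 scales, namely CPM (dots), the same relative to the median gene of the cluster (triangles) and UMIs per cell (squares). Zc3h12a stays above 0 and Zfp36l2 below 0 on all 3 scales in all 10 clusters, while Zfp36l1 lies on both sides of 0.

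*Zfp36l2* was lower in LPS at the CPM point estimate in 10 of 10 clusters, with an interval below 1 in 7. The median gene also had a ratio below 1 in each cluster. Relative to the median gene, the *Zfp36l2* ratios ran from 0.389 to 0.948. Among all genes of the class, *Zfp36l2* lay at the 3.88 percentile in cluster 7. Outside cluster 7 and macrophages it lay between the 11.5 percentile (cluster 8) and the 37.2 percentile (cluster 3), so ratios this low were not rare in those clusters. As a mean over cells its highest cluster ratio was 1.01, so it was not lower in all 10 there. Cluster 0 went from 64.1 CPM (5805 UMIs) to 42.9 CPM (3161 UMIs), a ratio of 0.668 (0.640 to 0.698). The lowest ratio was in macrophages, from 79.3 CPM (247 UMIs) to 24.9 CPM (62 UMIs), 0.315 (0.234 to 0.417). There it lay at the 3.09 percentile of the class, and its log2 ratio was lower than that of cluster 0 by an amount of -1.09 (-1.49 to -0.68). Of the genes of that class, 12.3% were at least 2-fold lower. After thinning to 3000 UMIs per cell, the 19 LPS macrophages with a *Zfp36l2* UMI held 3439 CPM of the 8 fibroblast markers and those without 1998 CPM, against 3316 and 2777 CPM in control, and the part of free RNA or of mixed droplets in the ratio was not tested.

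The other clusters lay between. Cluster 7 had a *Zfp36l2* ratio of 0.514 (0.370 to 0.710), clusters 4 and 5 of 0.676 and 0.691, cluster 2 of 0.771 and cluster 1 of 0.801, all with intervals below 1. In cluster 3 it went from 46.8 to 44.2 CPM, a ratio of 0.944 (0.797 to 1.12), and in clusters 8 and 9 the intervals also include 1. On UMIs per cell the ratios ran from 0.242 to 0.658, below 1 in each cluster, with an interval below 1 in 9. That scale is not corrected for depth, and LPS cells were shallower, at a median of 5269 UMIs against 7526 in control in cluster 3. A gene with an unchanged CPM would thus also lie below 1, so this count adds no separate support. The thinned share of cells with a *Zfp36l2* UMI was 20.6% of control and 6.55% of LPS macrophages, and 16.8% and 11.9% of the cells of cluster 0. In control its levels ran from 46.8 CPM in cluster 3 to 86.4 CPM in cluster 8, a span of 1.85-fold.

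The make-up of the 4 mRNAs shifted most in macrophages. Since a UMI is taken at the 3′ end of the mRNA and capture can differ between genes, only the change of each share is read here. Of the 4 genes' UMIs in macrophages, *Zc3h12a* made up 3.63% in control and 35.7% in LPS (32.8 to 38.7), *Zfp36* 8.85% and 16.2%, *Zfp36l2* 23.0% and 5.91%, and *Zfp36l1* 64.5% and 42.1%. In cluster 3 the *Zc3h12a* share was 2.91% and 8.83%, and the *Zfp36l1* share stayed within counting error, at 72.7% and 72.9%. Over all clustered cells the *Zc3h12a* share was 1.83% and 12.4%. The sum of the 4 was 418 CPM in control and 523 CPM in LPS, a ratio of 1.25 (1.24 to 1.27), but 0.951 (0.941 to 0.961) on UMIs per cell.

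**Figure D4:**
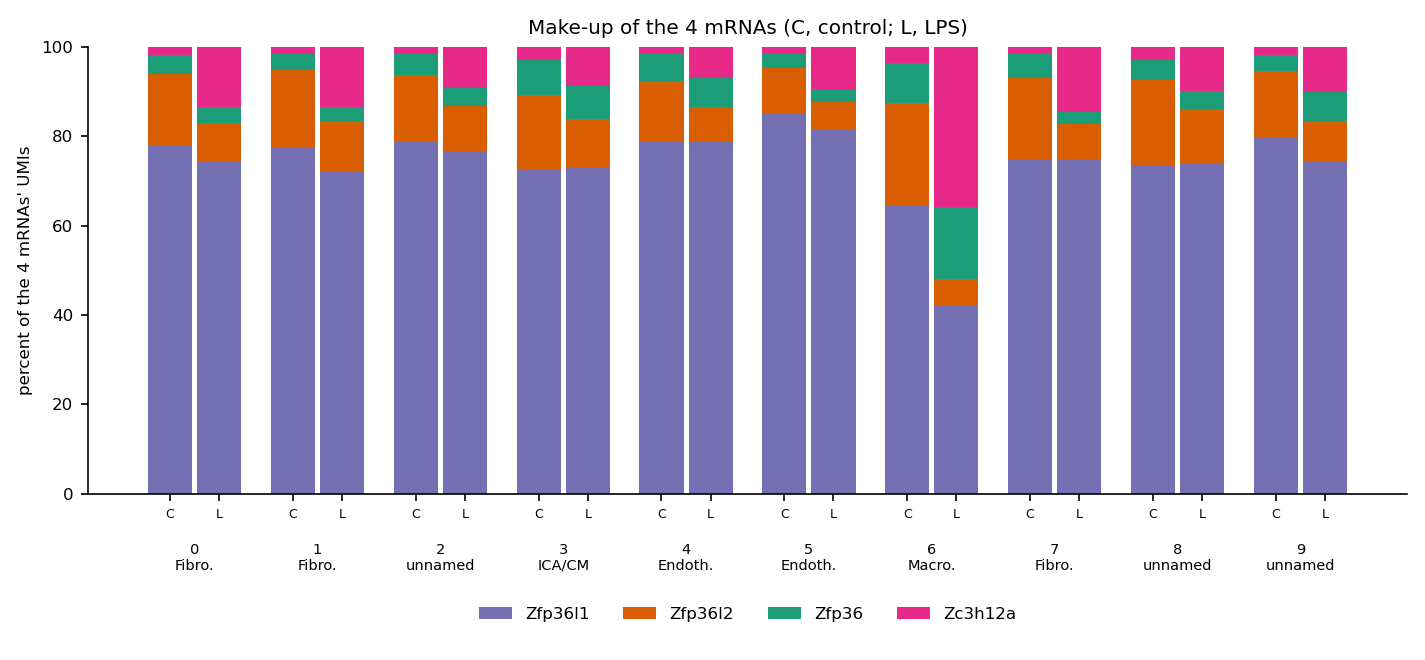
Share of each gene in the summed UMIs of the 4 mRNAs, in percent, for control (C) and LPS (L) in each cluster. The Zc3h12a part is larger in the LPS bar of each cluster, and in cluster 6 (macrophages) it reaches 35.7%.

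The cells of cluster 3 were also split by *Dbh*, the gene of dopamine β-hydroxylase, which makes norepinephrine. A *Dbh* UMI was found in 18.7% of its control cells (156 of 836) and in 13.0% of its LPS cells (121 of 929). Over all other clusters together the shares were 0.804% (86 of 10693 cells) and 0.332% (39 of 11752), in cells that were deeper, at a median of 12843 and 9727 UMIs against 7526 and 5269 in cluster 3. With each cell thinned to 3000 UMIs the shares were 7.66% and 7.02% in cluster 3 and 0.150% and 0.103% elsewhere. Cells with a *Dbh* UMI are not called ICA cells here, since the gene also had UMIs in other classes and *Th* had none in cluster 3. In the cells of cluster 3 with a *Dbh* UMI *Zc3h12a* went from 6.16 CPM (9 UMIs) to 44.2 CPM (32 UMIs), a ratio of 7.19 (3.35 to 17.1). In the cells of the cluster without a *Dbh* UMI the ratio was 3.95 (2.86 to 5.55), so the intervals overlap. *Zfp36l1* had ratios of 1.47 and 1.43 in the cells with and without a *Dbh* UMI and *Zfp36l2* of 1.12 (0.694 to 1.79) and 0.904 (0.752 to 1.08). On UMIs per cell these were 0.938 and 1.02 for *Zfp36l1* and 0.716 and 0.644 for *Zfp36l2*. *Zfp36* was at 30.1 and 22.1 CPM in the cells with *Dbh*, a ratio of 0.735 (0.387 to 1.33), and had a ratio of 1.55 (1.20 to 2.00) in those without. Per cell, the *Zfp36* ratios were 0.469 (0.247 to 0.847) with *Dbh* and 1.10 (0.858 to 1.43) without. Cells with a *Dbh* UMI were deeper, at a median of 8200 against 7455 UMIs in control and 5379 against 5229 in LPS.

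The listed target mRNAs of these proteins had larger ratios than the listed genes of the decay machinery. Of 21 known targets, 20 had at least 50 UMIs over all clustered cells, and 18 of them were at least 2-fold higher in LPS and 0 at least 2-fold lower, with a median ratio of 15.2 (all genes, 3.37% higher, median ratio 0.913). *Csf3*, for a neutrophil growth factor, went from 0.341 to 85.6 CPM, a ratio of 251 (192 to 337). For *Il1b*, which encodes interleukin-1β, the levels were 0.989 and 179 CPM and the ratio 181 (154 to 214). *Csf2*, for a myeloid growth factor, had 1 and 75 UMIs, a ratio of 89.7 with a counting interval of 15.6 to 3591. The 50 UMIs were counted over both libraries, so a target with few control UMIs, such as *Csf2*, was included only through its LPS UMIs. The list was also chosen with earlier results of these data known, so the count of 18 is a description and not a test. The 2 targets short of 2-fold were *Dusp1*, for a MAP kinase phosphatase, at a ratio of 1.11, and *Vegfa* at 1.97, and these were picked out after their values were seen.

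Co-factors and close relatives were followed by fixed lists. Over all clustered cells 3.37% of all genes were at least 2-fold higher and 8.13% at least 2-fold lower, so a count of 0 in lists this short says little. In deadenylation, the CCR4-NOT and PAN2-PAN3 deadenylases and their adaptors, 18 of 18 genes had at least 50 UMIs and 0 were 2-fold higher or lower, with a median ratio of 1.04. *Btg1*, an antiproliferative adaptor of the deadenylase, went from 161 to 301 CPM, 1.87 (1.84 to 1.90), *Btg2* had a ratio of 1.71 (1.65 to 1.78) and *Pan2* of 0.541 (0.393 to 0.737). In macrophages, 2 of 13 deadenylation genes were at least 2-fold higher, against 4.82% of all genes of the class, *Btg1* at 2.97 (2.70 to 3.26) and *Btg2* at 2.49 (1.93 to 3.24). Fibroblast clusters 0 and 1 also had 2, of 18 and 16 genes, with highest ratios of 2.28 and 2.21, against 3.44% and 3.23% of all genes. Clusters 8 and 9 had 1 each, of 6 and 1 genes, against 2.48% and 2.69%. Of 9 decapping and decay genes, 0 were 2-fold higher or lower, with ratios from 0.692 for *Upf1*, the helicase of nonsense-mediated decay, to 1.28 for *Patl1*, a decapping factor, and *Dcp1b*, a decapping co-activator, at 0.845. On UMIs per cell *Patl1* had a ratio of 0.975 (0.922 to 1.03).

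**Figure D5:**
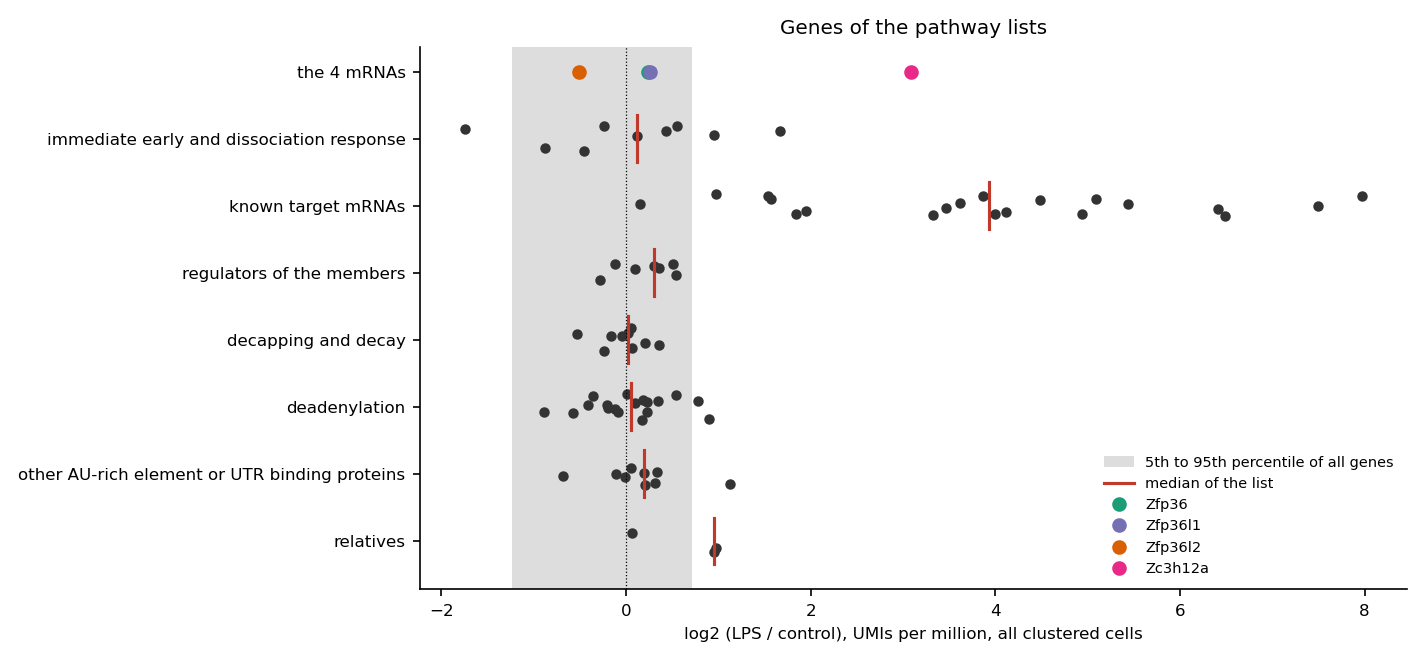
Log2 ratio of LPS to control over all clustered cells for the genes of 7 lists with at least 50 UMIs (dots), the median of each list (red bar), the 4 mRNAs (top) and the 5th to 95th percentile of all genes (grey). The known targets lie mostly to the right of the grey range, at a median ratio of 15.2, and the deadenylation and decapping genes mostly inside it.

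Among other proteins that bind AU-rich elements or untranslated regions, 1 of 9 was at least 2-fold higher, against 3.37% of all genes. It was *Arid5a*, whose protein is known to protect *Il6* mRNA, from 6.49 to 14.2 CPM, a ratio of 2.19 (2.02 to 2.37). *Elavl1*, for the stabilising protein HuR, went from 109 to 138 CPM, 1.26 (1.24 to 1.29), and *Khsrp*, for a decay-promoting protein, had a ratio of 0.624 (0.490 to 0.790). On UMIs per cell the *Elavl1* ratio was 0.960 (0.940 to 0.981), on the other side of 1. Of 7 relatives, 3 had at least 50 UMIs and none reached 2-fold over all clustered cells (all genes, 3.37% higher and 8.13% lower). *N4bp1*, for a ribonuclease related to Regnase-1, went from 16.4 to 32.2 CPM, a ratio of 1.96 (1.87 to 2.06). Its ratio was 3.56 (2.69 to 4.75) in macrophages, from 22.2 to 78.8 CPM, and 3.68 in cluster 5, but 1.16 in cluster 3. *Zc3h12c* had a ratio of 1.94 on 21 and 34 UMIs and *Rc3h2*, for a Roquin protein, of 1.05 (0.865 to 1.27). Per cell, the *Rc3h2* ratio was 0.796 (0.657 to 0.965).

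Of 8 regulators of the 4 proteins, 7 had at least 50 UMIs and 0 were 2-fold higher or lower over all clustered cells, against 3.37% and 8.13% of all genes. *Btrc*, a part of the ubiquitin ligase that marks Regnase-1, had a ratio of 1.45 (1.38 to 1.53), *Mapkapk2*, the kinase that phosphorylates tristetraprolin, of 1.42 (1.38 to 1.46), and *Ikbkb*, a kinase of the NF-κB pathway, of 1.28 (1.20 to 1.36). The *Ikbkb* ratio was 0.971 (0.914 to 1.03) on UMIs per cell. In macrophages 1 of 6 was at least 2-fold lower, against 12.3% of all genes of the class, *Mapk14*, for the p38α kinase upstream of *Mapkapk2*, from 71.9 to 16.9 CPM (224 and 42 UMIs), 0.235 (0.165 to 0.328). That gene was picked out after its value was seen.

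*Zfp36* is also a gene that answers quickly to handling, so immediate early genes are given beside it. Of 9 with at least 50 UMIs, 1 was at least 2-fold higher and 1 at least 2-fold lower over all clustered cells, against 3.37% and 8.13% of all genes. Counts this small in a list of 9 say little about the list. *Fos* went from 44.9 to 13.4 CPM, a ratio of 0.298 (0.283 to 0.315), *Atf3* had a ratio of 3.17 (2.85 to 3.53) and *Junb* of 1.93 (1.89 to 1.98). In macrophages *Fos* had a ratio of 0.467 and *Atf3* of 4.83, beside 2.24 for *Zfp36*. The part of the trypsin step in these levels was not tested.

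Over the 20 points given by 10 clusters in 2 libraries, the gene patterns most like each member were described by Pearson's r of log2(CPM + 10), among 9895 genes with at least 500 UMIs. The points share 2 libraries, so r holds the contrast between the libraries as well as that between clusters. Genes much higher in LPS in every cluster, as *Zc3h12a* was, therefore score alike, and r does not show shared regulation. The 5 patterns most like *Zc3h12a* were those of *Cxcl1* (0.97), *Nfkb1* (0.97), *Icam1* (0.96), *Tnfaip2* (0.96) and *Ptgs2* (0.95). For *Zfp36l2* they were *Eps8* (0.86), *Nthl1* (0.83), *Spata6* (0.83), *Pdcd4* (0.83) and *Cant1* (0.82). Patterns near to that of *Zfp36l1* included those of *Serping1* (0.85), *AC119762.7* (0.81), *Uri1* (0.81) and *Enpep* (0.80), and those nearest to *Zfp36* were *Pik3cb* (0.85), *Tbc1d2b* (0.83), *Atp6v1h* (0.83), *Atp6v0b* (0.82) and *AABR07009105.1* (0.82). Between members, *Zc3h12a* and *Zfp36l2* had r of -0.70, and *Zc3h12a* and *Zfp36* of 0.42.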

How the data were processed

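The authors deposited, for each library, raw UMI counts per gene and cell as whole numbers without normalization, a gene list and a table with the cluster and name of each cell. Per the labels, libraries were made with the 10X 3′ v2 kit, and the submitters' processing notes name Cell Ranger 2.2.0 and Seurat 2.3.4. The genome build and annotation are not given in the sources used here. By the methods, clusters came from RunCCA and FindClusters. The members and lists were chosen with earlier results of these data known.

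Counts were summed per cluster and library and divided by the UMIs of the class (CPM). Clusters under 50 cells and cells without a cluster were left out. Intervals (95%) are exact Poisson for levels, conditional exact intervals for a ratio, and those of Clopper and Pearson for a share of cells, all for counting error only. Shares of cells used cells thinned to 3000 UMIs, which left out 79 LPS cells and 0 control cells. No doublet caller was run. Of each list, all genes with at least 50 UMIs were counted and the 3 with the largest absolute log2 ratio over all clustered cells named; for likeness, the 5 highest r, of which 1 gene is not reported here. Ratios and intervals were tested on simulated data. Python 3.11.15, numpy 2.4.6, scipy 1.17.1 and pandas 2.3.3 were used.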

Additional observations from a re-analysis of the deposited data

Results flagged for a closer look

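*Zfp36l1* had counting intervals on opposite sides of 1 in different clusters, with a ratio of LPS to control of 1.44 in cluster 3 (ICA and cardiomyocyte) and 0.799 in cluster 6 (macrophages). The difference was not tested, since each condition has 1 library, and on UMIs per cell the ratio was 1.00 in cluster 3 and 0.616 in cluster 6. After thinning to 3000 UMIs per cell the cluster 3 ratio was 1.23, outside its counting interval. No group had enough samples to look for a sample far from the others.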

How the results depend on the processing

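No paired analysis was possible because there is a single library of each kind. Of 352 recomputed log2 ratios of the 4 genes, 297 stayed inside the counting interval of the reported value, 42 left it with the direction kept or not called, and 13 turned, all 13 on UMIs per cell, a scale chosen after seeing the data. On that scale the all-cell log2 ratios were -0.16 for *Zfp36*, -0.14 for *Zfp36l1*, -0.90 for *Zfp36l2* and 2.70 for *Zc3h12a*. *Zfp36* turned to -0.22, -0.089 and -0.037 in clusters 0, 3 and 4, and *Zfp36l1* to -0.12, -0.19, -0.24, -0.16, -0.022, -0.10, -0.083 and -0.078 in clusters 0, 1, 2, 4, 5, 7, 8 and 9. Relative to the median gene the all-cell values were 0.37, 0.39, -0.38 and 3.22 in the same order of genes. As a mean over cells, *Zfp36l1* stood at 0.24 and *Zc3h12a* at 2.98, and the highest cluster ratio of *Zfp36l2* was 1.01, no longer below 1. The 2 clusters with *Zfp36* at least 2-fold higher became 0 on UMIs per cell and 1 without cells flagged as mixed. A cell was flagged when over 2% of its UMIs came from the markers of another of 5 cell types. This left out 26 of 66 control and 18 of 58 LPS cells of cluster 9. The filter took cluster 9 as cardiomyocyte, though its fibroblast markers (17272 CPM in control) exceeded its cardiomyocyte markers (1645 CPM). The cells left out are therefore not shown to be mixtures. Without thinning, the difference in the share of cells with a UMI, LPS minus control, turned to -1.72 percentage points for *Zfp36* and -2.56 for *Zfp36l1* over all clustered cells, and to -1.36 for *Zfp36l1* in cluster 0. Leaving out cells with few genes or many mitochondrial UMIs removed 286 of 836 control and 290 of 929 LPS cells of cluster 3 and moved none of the 44 ratios out of its interval. The 1 cluster with *Zfp36l2* at least 2-fold lower became 2 as a mean over cells, after thinning to 3000 UMIs, without the 8% of cells with the most UMIs and on UMIs per cell. *Zfp36*, at least 2-fold lower in 0 clusters, was so in 1 after thinning and in 1 on UMIs per cell. *Zc3h12a* was at least 2-fold higher in 10 of 10 clusters under all 8 alternatives. Of the 5 genes most like *Zfp36*, 2 stayed when 1 CPM was added in place of 10. Clusters 7, 8 and 9 had the fewest cells of the 10, with 248, 151 and 124.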

Other observations

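Cluster 10, under the minimum of 50 cells, had 16 control and 26 LPS cells, and *Zc3h12a* had 2 and 8 UMIs there, *Zfp36l2* 2 and 7, *Zfp36* 5 and 1 and *Zfp36l1* 34 and 30. The 2 control and 8 LPS cells without a cluster held 1 and 3 *Zfp36l1* UMIs and none of the other members.

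In LPS cells of cluster 0, thinned to 3000 UMIs, 816 of 7024 cells had both a *Zc3h12a* and a *Zfp36l1* UMI, where 816 would be met if the genes fell on cells independently. With *Il1b*, *Zc3h12a* met in 106 cells against 84.9, and with *Ptgs2* in 194 against 183. In LPS macrophages *Zfp36l1* met *Zfp36l2* in 11 of 290 cells against 4.78, *Il6* in 9 against 15.1 and *Tnf* in 6 against 9.57, while *Zfp36* met *Il6* in 16 against 11.2. These are descriptions from small counts of 1 library, picked after their values were seen. LPS macrophages with a *Zfp36l1* or a *Zfp36l2* UMI held 3420 and 3439 CPM of the fibroblast markers, against 1645 and 1998 CPM in those without. The part of free RNA or of mixed droplets in these counts was not tested.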
